A study of Mus musculus with 6 samples.

Results

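The genes described here are 10 immediate early transcription factor genes, *Fos*, *Fosl1*, *Fosl2*, *Jun*, *Junb*, *Egr1*, *Egr2*, *Atf3*, *Myc* and *Nr4a1*, chosen by name and matched by symbol among 52089 symbols in the deposited table. They were followed in 6 RNA-seq libraries of differentiating primary brite adipocytes, the thermogenic adipocytes that arise within white fat. The cells came from the stromal-vascular fraction of inguinal fat of male 129SvEv mice a few weeks old. They were induced for 2 days with a hormone cocktail, moved to differentiation medium with the browning agent rosiglitazone, and reverse transfected on day 1 with a locked nucleic acid gapmer, an antisense oligonucleotide that directs cleavage of its target RNA. Of these libraries, 3 come from *Ctcflos* knockdown (KD) by ASO1, a gapmer against transcript 1 of the long noncoding RNA *Ctcflos*, and 3 from the nontargeting control gapmer (NC ctrl). Both gapmers were used at 50 nM, and RNA was harvested 24 h later. All 6 libraries therefore share trypsinisation, replating, the transfection reagent and rosiglitazone, there is no untransfected culture among them, and *Ctcflos* was targeted by 1 oligonucleotide. The labels number the replicates but do not say whether they are separate cultures, so p-values measure the spread between these libraries, which may be technical. The question is how far the factors that cells switch on soonest after a stimulus differed between KD and control.

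Immediate early genes are transcribed within minutes of a growth factor, cytokine, hormone or stress signal without the need for new protein, because the factors at their promoters, among them SRF with its ELK cofactors and CREB, are already present and are switched on by kinases such as ERK. Most of their transcripts and proteins are short-lived. FOS and JUN proteins pair through leucine zippers to form AP-1, EGR proteins are zinc finger factors, MYC pairs with MAX to drive growth and ribosome production, ATF3 is a stress-induced leucine zipper factor and NR4A1 is an orphan nuclear receptor. In fat cell precursors several of them rise shortly after the hormone cocktail is added, EGR2 is known to promote the early steps of adipogenesis, and sustained MYC is known to hold precursors back from differentiating.

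Expression is given as RPKM, the reads on a transcript divided by its length in kilobases and by the mapped reads of the library. It was averaged over the transcript accessions of a gene. Levels are therefore per length, but between genes they also depend on which accessions are listed for a gene. Differences were tested with limma-trend on log2(RPKM + 1) in the 11701 genes whose mean over all libraries reached 1 RPKM, and a gene is called changed at a Benjamini-Hochberg adjusted p under 0.05 over these genes. Fold changes on this log2 scale understate the change of weakly expressed genes. Of the 10 genes, 9 passed the filter, and each of these had a control mean of at least 2.22 RPKM. *Nr4a1* stayed under the filter and is given from a fit without it. The depth recovered from the values was 60.8 to 75.5 mio mapped reads in the KD libraries and 62.9 to 79.2 mio in the controls. *Ctcflos* itself had 0.0969, 0.0705 and 0.210 RPKM in KD replicates 1, 2 and 3 and 0.748 to 0.840 RPKM in the controls.

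Of the 9 genes that passed, 3 rose in *Ctcflos* KD, namely *Jun*, *Atf3* and *Myc*, and 0 fell. At an unadjusted p under 0.05 the limma count was 4, the further gene being *Egr2*, which lay lower in KD. The background was high: 24.0% of all genes tested were called, 11.5% as higher and 12.4% as lower in KD. The 3 of 9 is near the share called in either direction. All 3 rose, and beside the 11.5% called as higher a count from 9 genes is too small to draw on. The median log2 fold change of the 9 genes was 0.37, beside 0.028 over all genes tested, and 7 of the 9 had a positive value. KD and control libraries did not overlap in 5 of the 10 genes, with KD above in *Jun*, *Atf3*, *Myc* and *Nr4a1* and below in *Egr2*. Among all genes tested the groups did not overlap in 44.8%, KD lying above in 22.9% and below in 21.9%.

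**Figure D1:**
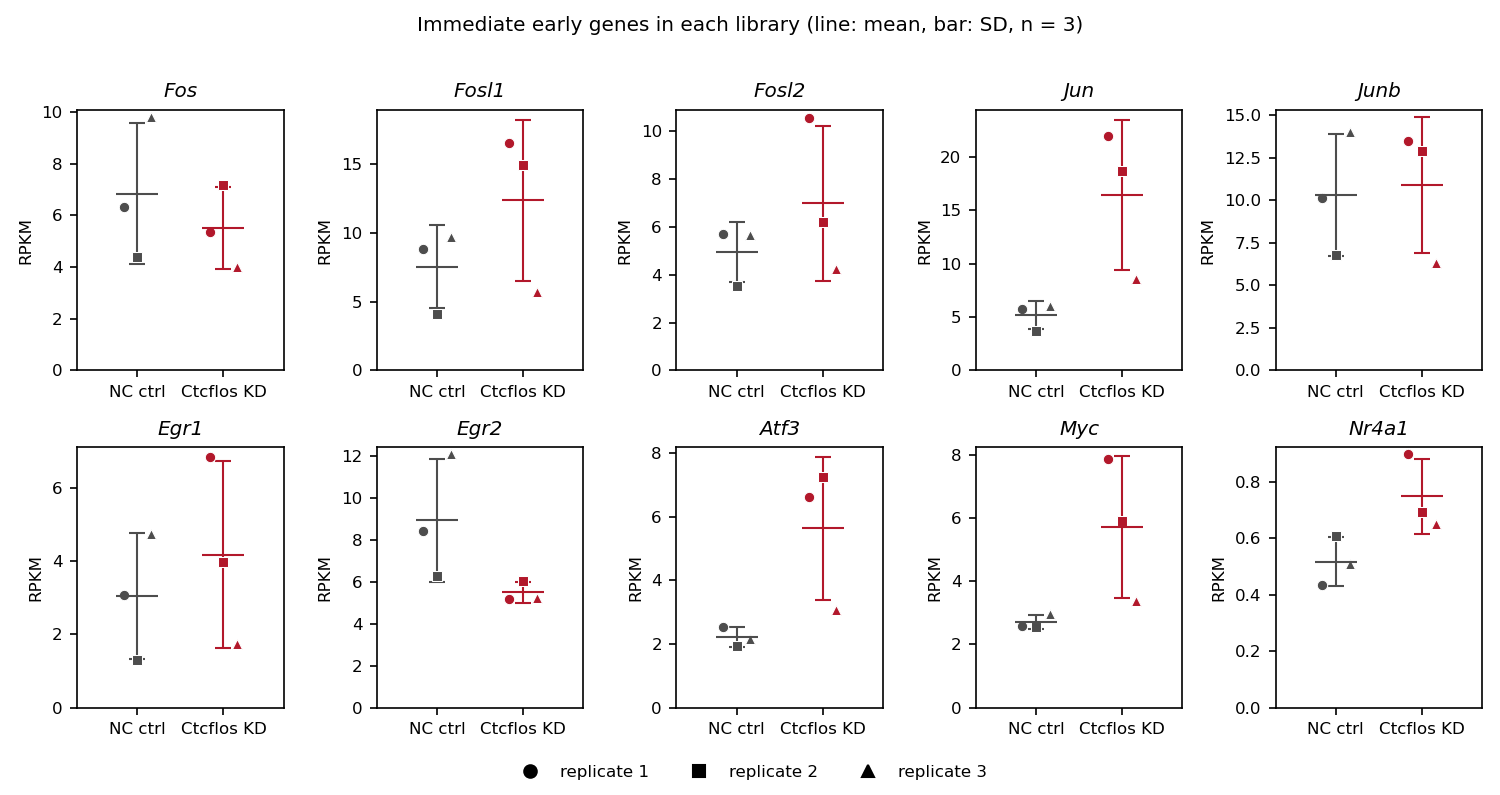
Expression of the 10 genes in RPKM on linear axes that start at 0, with 1 point for each of the 3 NC ctrl (grey) and 3 *Ctcflos* KD (red) libraries, shapes for replicate numbers, a line for the mean and a bar for the SD. The KD libraries lie above the controls for *Jun*, *Atf3*, *Myc* and *Nr4a1* and below them for *Egr2*, and KD replicate 3 (triangle) is the lowest KD library in 9 of the 10 genes.

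*Jun* encodes the DNA-binding partner that FOS proteins need to form AP-1. It was at 22.0, 18.7 and 8.55 RPKM in KD replicates 1, 2 and 3 and at 5.77, 3.71 and 6.06 RPKM in the controls. Every KD library was above every control, although KD replicate 3 lay much closer to the controls than the other two. The means were 16.4 ± 7.0 RPKM in KD and 5.18 ± 1.28 RPKM in control cells (SD, n = 3), a ratio of 3.17. On the log2 scale *Jun* rose by 1.42 (SE 0.317, 95% interval 0.69 to 2.15, adjusted p = 0.019, limma), the largest change among the 10 genes. KD replicate 3 alone was 1.65 times the control mean, and the other two KD libraries together were 3.93 times it. By level averaged over accessions *Jun* had rank 5 of the 10 genes in control cells and rank 1 in KD cells.

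The close relatives of *Jun* are *Junb*, which pairs with FOS proteins but activates many AP-1 targets less strongly than JUN does, and *Jund*, which is expressed more steadily. *Junb* was at 13.5, 12.9 and 6.32 RPKM in the KD libraries and at 10.1, 6.82 and 14.0 RPKM in the controls. The groups overlapped over most of their range, with means of 10.9 ± 3.99 and 10.3 ± 3.60 RPKM (SD, n = 3). The log2 fold change of *Junb* was 0.059 (SE 0.309, 95% interval -0.65 to 0.77, adjusted p = 0.90, limma), an interval that still allows sizeable differences either way. *Jund* had 11.6, 9.86 and 6.30 RPKM in KD and 6.94, 4.44 and 5.02 RPKM in controls. Its groups overlapped through KD replicate 3, and its log2 fold change of 0.65 (SE 0.220) did not pass the test (adjusted p = 0.066, limma). Whether *Jun* differed more than *Junb* or *Jund* was not tested.

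*Fos* encodes the activating partner of JUN and is the classical immediate early gene. It was measured at 5.35, 7.18 and 4.0 RPKM in the KD libraries and at 6.34, 4.40 and 9.79 RPKM in the controls. The highest value belonged to NC ctrl replicate 3 and the lowest to KD replicate 3, with the others interleaved. Means of 5.51 ± 1.60 RPKM in KD and 6.84 ± 2.73 RPKM in control cells (SD, n = 3) gave a log2 fold change of -0.24 (SE 0.264, 95% interval -0.85 to 0.37, adjusted p = 0.53, limma). Without NC ctrl replicate 3 the value for *Fos* was 0.019, so its sign rested on that library.

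*Fosl1* and *Fosl2* encode FRA-1 and FRA-2, relatives of FOS that bind DNA with JUN but lack its strong activating domain, and that usually appear later and last longer than FOS. *Fosl1* was at 16.5, 14.9 and 5.68 RPKM in KD replicates 1, 2 and 3 and at 8.85, 4.09 and 9.66 RPKM in the controls. In 2 KD libraries it was above every control, whereas KD replicate 3 lay under 2 of the 3 controls. The log2 fold change of *Fosl1* was 0.60 (SE 0.402, 95% interval -0.32 to 1.52, adjusted p = 0.30, limma). Without KD replicate 3 it was 1.04 and passed the test (adjusted p = 0.027, limma), in a setting where 41.1% of all genes passed. Without NC ctrl replicate 2 the value for *Fosl1* was 0.26 (adjusted p = 0.67) and without KD replicate 1 it was 0.35 (adjusted p = 0.60). *Fosl2* had 10.5, 6.17 and 4.22 RPKM in KD and 5.70, 3.52 and 5.66 RPKM in controls. It showed the same overlap through KD replicate 3, with means of 6.97 ± 3.23 and 4.96 ± 1.25 RPKM (SD, n = 3). Its log2 fold change was 0.37 (SE 0.282, 95% interval -0.28 to 1.01, adjusted p = 0.36, limma), with 0.63 without KD replicate 3, 0.18 without NC ctrl replicate 2 and 0.062 without KD replicate 1. On the opposite strand the 3' part of *Fosl1* overlaps *Ccdc85b*, which had a mean of 4.39 RPKM, and since no source says that reads were counted by strand, reads of the pair cannot be told apart.

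*Atf3* encodes a leucine zipper factor that is induced by many kinds of cell stress, pairs with JUN proteins or itself, and often represses its targets. It was at 6.62, 7.24 and 3.06 RPKM in the KD libraries and at 2.55, 1.94 and 2.17 RPKM in the controls. All KD libraries were above all controls, KD replicate 3 again by the smallest margin. The means were 5.64 ± 2.25 and 2.22 ± 0.307 RPKM (SD, n = 3), a ratio of 2.54, and *Atf3* rose by 0.98 on the log2 scale (SE 0.248, 95% interval 0.41 to 1.55, adjusted p = 0.027, limma). The controls differed by a factor of 1.31 at most, so that the wider spread lay within the KD group.

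*Myc* encodes the growth-promoting partner of MAX. Its level was 7.88, 5.90 and 3.39 RPKM in KD replicates 1, 2 and 3 and 2.58, 2.56 and 2.97 RPKM in the controls. The controls were closer together than for any other of the 10 genes, within a factor of 1.16, and every KD library exceeded them. The means of 5.72 ± 2.25 and 2.71 ± 0.227 RPKM (SD, n = 3) gave a ratio of 2.12, and *Myc* rose by 0.80 on the log2 scale (SE 0.228, 95% interval 0.28 to 1.33, adjusted p = 0.038, limma). In KD replicate 3 *Myc* was 1.25 times the control mean.

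*Egr1* and *Egr2* encode zinc finger factors that bind the same GC-rich sites. *Egr1* was at 6.84, 3.96 and 1.74 RPKM in KD replicates 1, 2 and 3 and at 3.06, 1.31 and 4.74 RPKM in the controls. Within both groups the libraries differed widely, by a factor of 3.94 in KD and 3.63 in controls, which is the widest control spread of the 10 genes. Its log2 fold change was 0.33 (SE 0.418, 95% interval -0.63 to 1.29, adjusted p = 0.59, limma), and it turned to -0.035 without KD replicate 1 and to -0.028 without NC ctrl replicate 2. *Egr2* was at 5.20, 6.05 and 5.21 RPKM in KD and at 8.40, 6.29 and 12.1 RPKM in controls. Here the KD libraries lay close together, all below the controls, with KD replicate 2 just under NC ctrl replicate 2. The means were 5.49 ± 0.489 RPKM in KD and 8.91 ± 2.92 RPKM in control cells (SD, n = 3), a ratio of 0.616. The log2 fold change of *Egr2* was -0.57 (SE 0.198, 95% interval -1.03 to -0.12), with an unadjusted p of 0.020 and an adjusted p of 0.068 in limma, so it was not called. It passed the threshold with values rescaled by the median of ratios (-0.60, adjusted p = 0.044) and without NC ctrl replicate 2 (-0.77, adjusted p = 0.033). Without NC ctrl replicate 3 the value was -0.35 (adjusted p = 0.19), and over all alternatives the adjusted p of *Egr2* ranged from 0.033 to 0.19.

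*Nr4a1*, also known as *Nur77*, encodes a nuclear receptor that cAMP and growth signals induce. It was weakly expressed, at 0.900, 0.695 and 0.652 RPKM in the KD libraries and 0.436, 0.607 and 0.508 RPKM in the controls. The KD libraries lay above the controls by a narrow margin. In the fit without a filter its log2 fold change was 0.20 (SE 0.0994, 95% interval -0.031 to 0.44, adjusted p = 0.27, limma), for means of 0.749 ± 0.132 and 0.517 ± 0.0863 RPKM (SD, n = 3). An exact two-sided permutation test of 3 libraries against 3 cannot go below p = 0.1, and it gave that value for the 5 genes whose groups did not overlap.

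**Figure D2:**
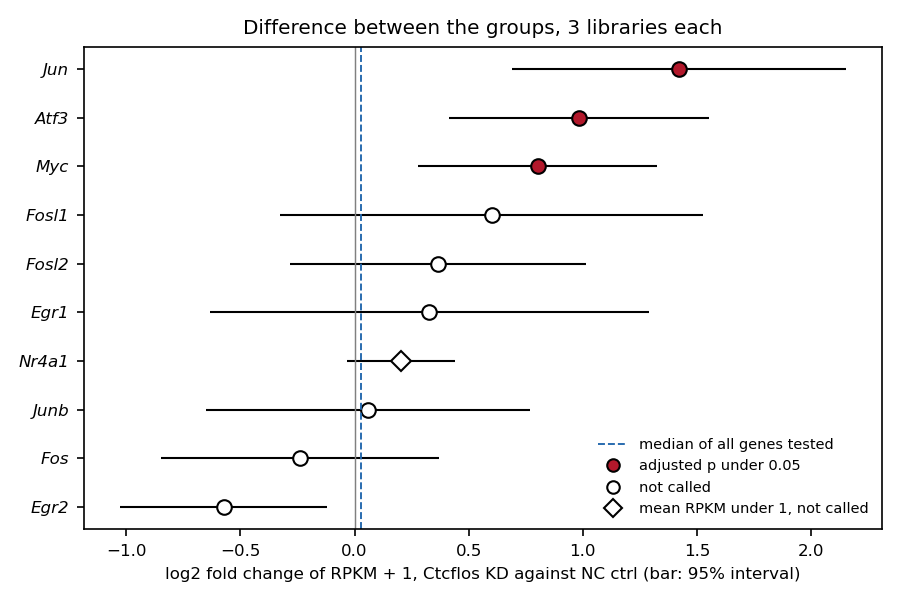
Log2 fold change of RPKM + 1, *Ctcflos* KD against NC ctrl, for each of the 10 genes with its 95% interval, 3 libraries a group. Filled points are *Jun*, *Atf3* and *Myc*, with an adjusted p under 0.05, the diamond is *Nr4a1* from the fit without a filter, and the dashed line is the median over all genes tested, 0.028. The interval of *Egr2* lies below 0 without passing the adjusted threshold.

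In control cells the order of the levels from high to low was *Junb*, *Egr2*, *Fosl1*, *Fos*, *Jun*, *Fosl2*, *Egr1*, *Myc*, *Atf3* and *Nr4a1*, from 10.3 to 0.517 RPKM. Neighbours in this order overlapped in their range over the 3 controls, except *Myc* with *Atf3* and *Atf3* with *Nr4a1*. In KD cells *Egr2* had rank 8 and *Junb* rank 3. The order depends on the accessions averaged. From RefSeq entries, control means were 10.8 RPKM for *Egr2* and 10.1 RPKM for *Junb*, and 6.96 RPKM for *Fosl2* and 5.07 RPKM for *Jun*. The control ranges of *Myc* and *Atf3* RefSeq entries overlapped. The RefSeq mean of *Egr2* in KD was 6.70 RPKM, beside 6.54 RPKM for *Atf3* and 5.81 RPKM for *Fos*.

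Within each group the same library tended to lie lowest across the 10 genes. KD replicate 3 was the lowest KD library in 9 of the 10 genes, all but *Egr2*, whereas it was the lowest in 45.6% of all genes tested. NC ctrl replicate 2 was the lowest control in 9 of the 10, all but *Nr4a1*, against 51.3% of all genes tested. KD replicate 1 was the highest KD library in 7 of the 10 genes, against 31.9% of all genes tested, and NC ctrl replicate 3 the highest control in 7, against 45.1%. KD replicate 3 also had the highest *Ctcflos* value of the KD group and the lowest depth of all libraries, 60.8 mio mapped reads. Its *Cebpa* level, a core factor of adipogenesis, was 63.9 RPKM beside 32.8 and 31.8 RPKM in the other KD libraries and 75.9 ± 2.12 RPKM in controls (SD, n = 3). NC ctrl replicate 2 had 83.6 RPKM of *Acta2*, a smooth muscle actin, beside 31.6 and 38.8 RPKM in the other controls. The part of these differences in the values of the 10 genes was not tested.

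**Figure D3:**
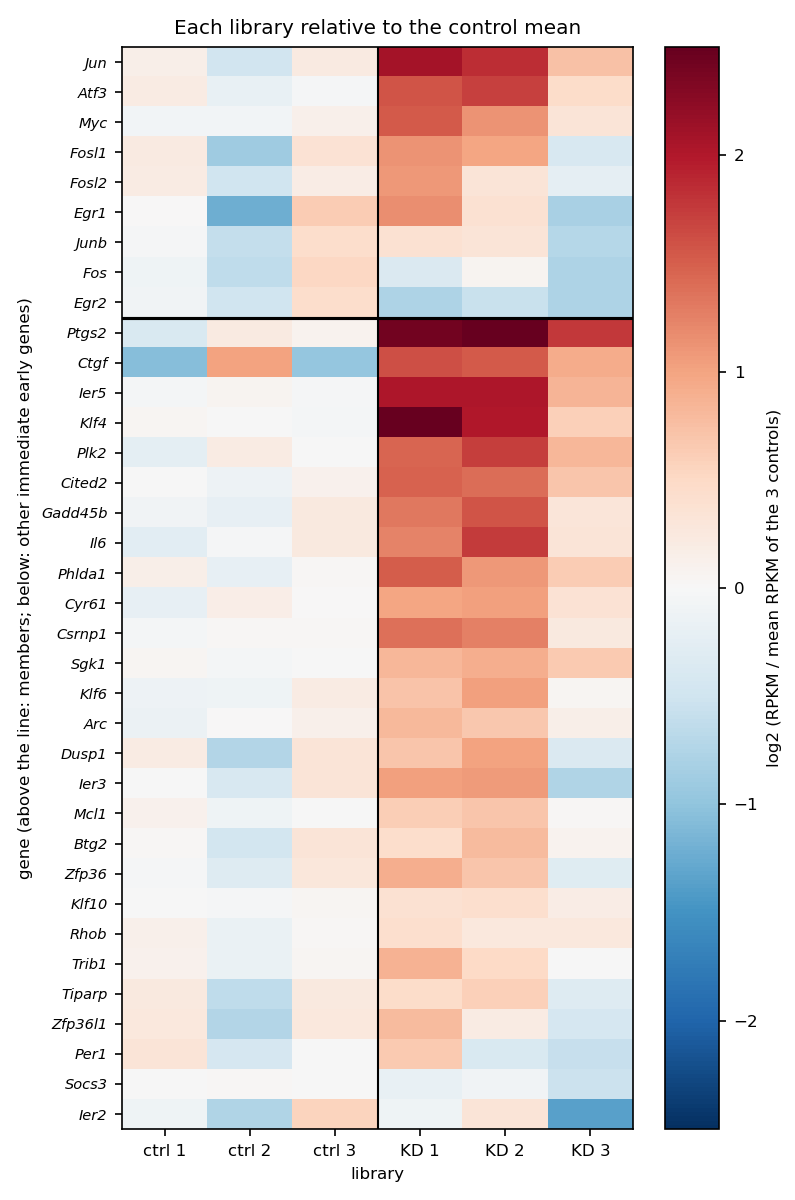
Each library relative to the mean of the 3 controls, as log2 of RPKM over that mean, for the 9 genes that passed the filter (above the line) and 27 other immediate early genes (below it). Red is above and blue below the control mean. KD replicate 3 is the lowest KD column in every row except *Egr2*, and NC ctrl replicate 2 the lowest control in all 9 upper rows.

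The calls of *Jun*, *Atf3* and *Myc* depended on which libraries were used. Without KD replicate 3, 4 genes were called, *Jun*, *Atf3*, *Myc* and *Fosl1*, with log2 fold changes of 1.81, 1.30, 1.08 and 1.04. In that setting 41.1% of all genes were called, so the count of 4 is no result about these genes. Without KD replicate 1, KD replicate 2, NC ctrl replicate 1 or NC ctrl replicate 3 the limma count was 0, and without NC ctrl replicate 2 it was 1, *Egr2*. The adjusted p of *Jun* then ranged up to 0.067, that of *Atf3* up to 0.094 and that of *Myc* up to 0.12. Their sign did not turn: across the 6 omissions *Jun* lay between 1.17 and 1.81, *Atf3* between 0.79 and 1.30 and *Myc* between 0.57 and 1.08 on the log2 scale. Over all genes the number called ranged from 369 to 4810 over the same omissions. The share called was 10.1%, 9.31% and 41.1% without KD replicates 1, 2 and 3. It was 3.60%, 13.5% and 3.16% without NC ctrl replicates 1, 2 and 3. These shares are the background for the list counts below that leave out a library.

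**Figure D4:**
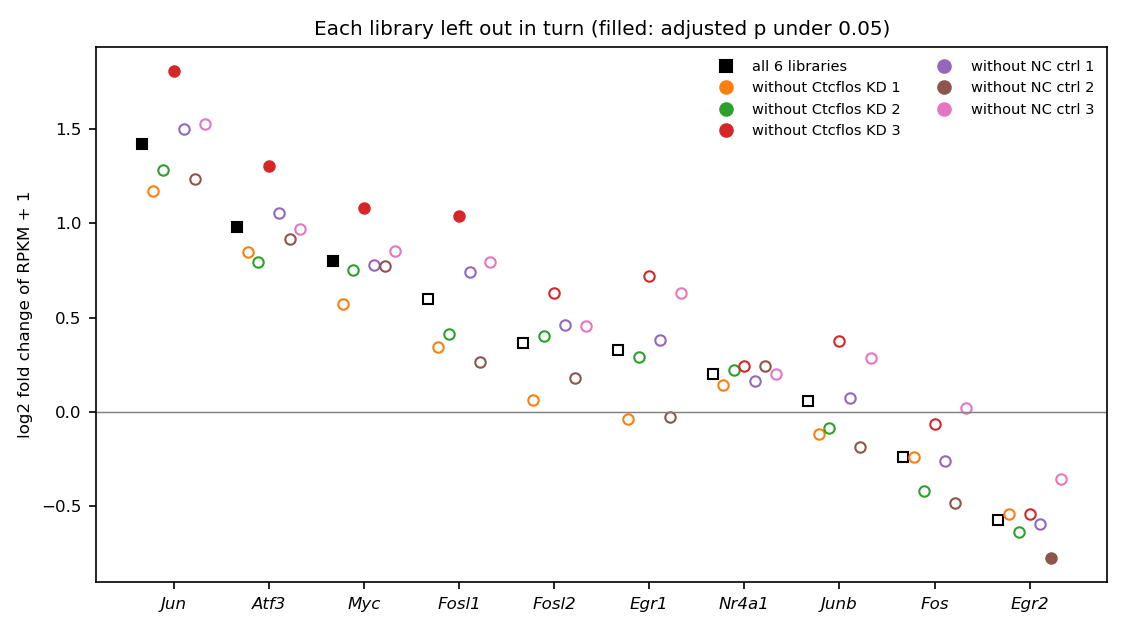
Log2 fold change of RPKM + 1 of the 10 genes with all 6 libraries (black squares) and after omission of each single library (coloured circles), filled where the adjusted p was under 0.05 and with *Nr4a1* from the fit without a filter. *Jun*, *Atf3* and *Myc* stay above 0 throughout, *Junb*, *Egr1* and *Fos* cross 0, and leaving out KD replicate 3 raises *Jun* to 1.81.

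The table lists 61 transcript accessions for the 10 genes, 36 GenBank clones, 13 curated RefSeq entries and 12 Ensembl transcripts, which share reads and are no replicates of each other. Of these, 58 passed the filter and 24 were called, all higher in KD, beside 26.0% of all accessions tested and 11.3% called as higher. For *Jun* all 10 accessions were called, with ratios of 3.05 to 3.21 between KD and control. For *Atf3* all 4 were called, with ratios of 2.49 to 2.94. The accession with the ratio of 2.94 had a control mean of 0.930 RPKM, itself under the filter, which it passed through KD. For *Myc* 10 of its 11 accessions passed and were called. Accessions of the other genes gave 0 calls in limma. The 12 accessions of *Junb* had ratios of 1.06 to 1.07. Since they share reads they could hardly differ, and this adds no evidence on *Junb*. The 5 accessions of *Egr2* had ratios of 0.505 to 0.623 and adjusted p-values of 0.061 to 0.065. As with *Fosl1*, reads cannot be told apart where the Gencode span of a gene meets another on the opposite strand: the 5' end of *Jun* shares 689 bases with *Junos*, an antisense gene, and *Junb* shares 351 bases with *Prdx2*, which had a mean of 30.2 RPKM. *Atf3* in its longest form spans the small RNA gene *Gm24748*.

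The bases before the start site are shown for *Jun* and *Atf3*, which were called, and for *Egr2* and *Fos*, which were not. The marks cannot be compared between these genes, since some strings were picked from the *Jun* and *Atf3* sequences. Immediate early promoters are known for short sites that hold SRF, ATF or CREB factors ready before a signal. The sequences are the 250 bases before the RefSeq start in GRCm38.p6, printed 5' to 3' on the strand of the gene: *Jun* at chr4:95052223-95052472 and *Atf3* at chr1:191183334-191183583, both on the minus strand, and *Egr2* at chr10:67537619-67537868 and *Fos* at chr12:85473640-85473889, both on the plus strand. *Egr2* has several RefSeq starts, and the one shown was picked among those whose window holds a CArG box, the binding site of SRF. Capitals mark matches to the motifs named after them.
Jun: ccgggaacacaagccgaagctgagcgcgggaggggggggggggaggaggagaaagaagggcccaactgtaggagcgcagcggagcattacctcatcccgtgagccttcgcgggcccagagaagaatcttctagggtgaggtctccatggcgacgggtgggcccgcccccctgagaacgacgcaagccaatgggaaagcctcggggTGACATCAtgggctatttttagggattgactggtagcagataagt
Atf3: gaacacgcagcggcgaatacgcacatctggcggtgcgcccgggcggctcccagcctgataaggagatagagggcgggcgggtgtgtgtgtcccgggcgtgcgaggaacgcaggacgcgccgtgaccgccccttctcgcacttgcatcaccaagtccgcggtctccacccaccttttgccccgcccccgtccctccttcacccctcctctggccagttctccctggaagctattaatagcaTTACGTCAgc
Egr2: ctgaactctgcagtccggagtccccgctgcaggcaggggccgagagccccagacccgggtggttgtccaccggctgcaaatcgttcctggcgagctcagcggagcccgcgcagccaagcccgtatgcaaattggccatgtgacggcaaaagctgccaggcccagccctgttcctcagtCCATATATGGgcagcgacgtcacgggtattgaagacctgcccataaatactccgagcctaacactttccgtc
Fos: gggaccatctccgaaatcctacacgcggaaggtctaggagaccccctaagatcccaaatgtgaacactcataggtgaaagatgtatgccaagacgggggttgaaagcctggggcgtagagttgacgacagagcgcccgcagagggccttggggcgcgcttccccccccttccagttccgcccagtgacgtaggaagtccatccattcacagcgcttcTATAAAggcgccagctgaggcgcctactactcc

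RefSeq windows of 300 bases, 250 before and 50 after a start, were matched by symbol for 7 of the 10 genes, in 11 windows, and *Egr1*, *Fosl1* and *Myc* had no entry. Motifs were searched on both strands. A CArG box was found in *Egr2* alone among these genes, in 4 of the 11 windows, and in 1.63% of all 32851 windows. Several of these *Egr2* windows overlap and hold the same box, CCATATATGG, which was counted again in each of them. Another box, CCTTTTTTGG, lay in the remaining window. The 4 windows are therefore not separate boxes, and their share cannot be compared with that of all windows. In the *Egr2* window shown above, which was picked for holding a CArG box, CCATATATGG lay 72 bases before the start. The letters TATAAA were found in *Fos*, 33 bases before the start, and in 13.6% of all windows. They were also found in *Junb*, but at the start itself and not before it. GCGNGGGCG, the EGR site, was in *Fosl2* and *Nr4a1* and in 5.55% of all windows, and the E-box CACGTG was in another *Egr2* window and in 7.15% of all. The CRE letters TGACGTCA (1.79% of all windows) and the AP-1 letters TGANTCA (7.81%) had 0 matches in the 11 windows. Further strings were chosen after the *Jun* and *Atf3* sequences had been read. TGACATCA, capitalised in *Jun* 45 bases before the start, occurs in 3.62% of all windows. TTACGTCA, capitalised in *Atf3* 10 bases before the start, occurs in 0.499%. Similar letters in the other sequences shown, CGACGTCA in *Egr2* and TGACGT in *Fos*, were not searched for and stand in lower case. The capitals therefore cannot set the genes that rose apart from the others. These matches describe letters and not binding. Sites farther from a start, and any site of the genes without an entry, were not searched, so a motif missing here may lie outside the window.

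A list of other immediate early genes was read in the same way. Of 31 listed, 27 passed the filter, 12 rose and 0 fell (0 also at an unadjusted p under 0.05 in limma). These 12 are 44.4% of those that passed, beside the 11.5% of all genes called as higher, and the median log2 fold change was 0.50. *Ptgs2*, the inducible cyclooxygenase that makes prostaglandins, had 7.94, 8.34 and 5.07 RPKM in KD and 1.15, 1.75 and 1.57 RPKM in controls, and rose by 1.69 (SE 0.178, adjusted p = 0.0027, limma). *Ier5*, an early response gene of growth signals and heat stress, rose from 5.31 ± 0.223 to 17.5 ± 6.87 RPKM (SD, n = 3), by 1.47 on the log2 scale (adjusted p = 0.011, limma). *Klf4*, a zinc finger factor, had 9.99, 5.65 and 2.11 RPKM in KD beside 1.41 ± 0.0483 RPKM in controls, and rose by 1.34 (adjusted p = 0.038, limma). *Ctgf*, a secreted matrix protein, rose by 1.55 (adjusted p = 0.045, limma), but its groups overlapped, since NC ctrl replicate 2 was at 19.8 RPKM and the other controls at 4.68 and 5.08 RPKM. The other 8 called genes lay between 0.62 and 1.20 on the log2 scale. KD replicate 3 was the lowest KD library in 27 of these 27 genes, and NC ctrl replicate 2 the lowest control in 16. Without KD replicate 3, 20 of these genes were called, while the share called among all genes rose to 41.1%. The count was 6, 5 and 6 without KD replicate 1, KD replicate 2 and NC ctrl replicate 2, and 2 without NC ctrl replicate 1 or 3.

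Partners of the 10 factors were read next. Of 13 further leucine zipper partners of AP-1, 8 passed and 1 rose, *Mafk*, a small MAF protein without an activating domain. This is 12.5% of those that passed, near the 11.5% of all genes called as higher. *Mafk* had 7.80, 7.94 and 3.23 RPKM in KD and 2.02, 2.12 and 1.98 RPKM in controls, a rise of 1.19 on the log2 scale (SE 0.264, adjusted p = 0.019, limma). Every KD library was above the controls, which lay close together. Not called were *Batf2* (0.98), *Jund* (0.65), *Mafg* (0.61), *Jdp2* (0.36) and *Maff* (0.35), with adjusted p-values of 0.053 to 0.18 in limma, nor *Atf2* (0.027) and *Maf* (-0.027). The control mean of *Batf2*, 0.898 RPKM, was itself under the filter, which it passed through KD, and its groups overlapped through KD replicate 3. The count for this list was 6 without KD replicate 3, where 41.1% of all genes were called, and 0 without any other single library. It was 3 with rescaled values or the highest accession, 2 with a replicate block and 0 without the filter. *Fosb*, the remaining FOS family gene, had a mean of 0.092 RPKM.

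Among the other EGR and NR4A genes and the NAB corepressors, which bind EGR proteins and curb them, 2 of 6 passed and 0 were called in limma, with 1 at an unadjusted p under 0.05. That gene, *Nab2*, itself known as a target of EGR factors, had 7.44, 9.49 and 6.20 RPKM in KD and 10.2, 9.24 and 11.7 RPKM in controls (log2 fold change -0.40, adjusted p = 0.10, limma). The groups overlapped between KD replicate 2 and NC ctrl replicate 2. *Nab1* was at 0.068 on the log2 scale (adjusted p = 0.66, limma). *Egr3*, *Nr4a2* and *Nr4a3* had means of 0.205, 0.130 and 0.016 RPKM, and *Egr4* was listed at 0 in all 6 libraries.

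Of 11 relatives of MYC and members of the MAX network, 8 passed, 1 rose and 2 fell, which is 37.5% called beside 24.0% of all genes. *Mycl*, a close relative of MYC, rose from 0.298, 0.335 and 0.277 RPKM in the controls to 2.44, 2.67 and 1.16 RPKM in KD, a ratio of 6.88 (log2 fold change 1.21, SE 0.189, adjusted p = 0.0075, limma). Its KD libraries were all far above the controls, and its control mean of 0.303 RPKM was itself under the filter, which it passed through KD. *Mlx* and *Mxd4*, which bind E-boxes in the same network and of which MXD4 opposes MYC, fell by 0.65 and 0.59 on the log2 scale (adjusted p = 0.015 and 0.029, limma). *Max*, the shared partner, was at 12.3, 12.7 and 9.90 RPKM in KD and 12.7, 10.8 and 13.4 RPKM in controls, with overlapping groups (adjusted p = 0.70, limma). Without KD replicate 2 this list had 0 calls, and without KD replicate 1, NC ctrl replicate 1 or NC ctrl replicate 3 it had 1 each.

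**Figure D5:**
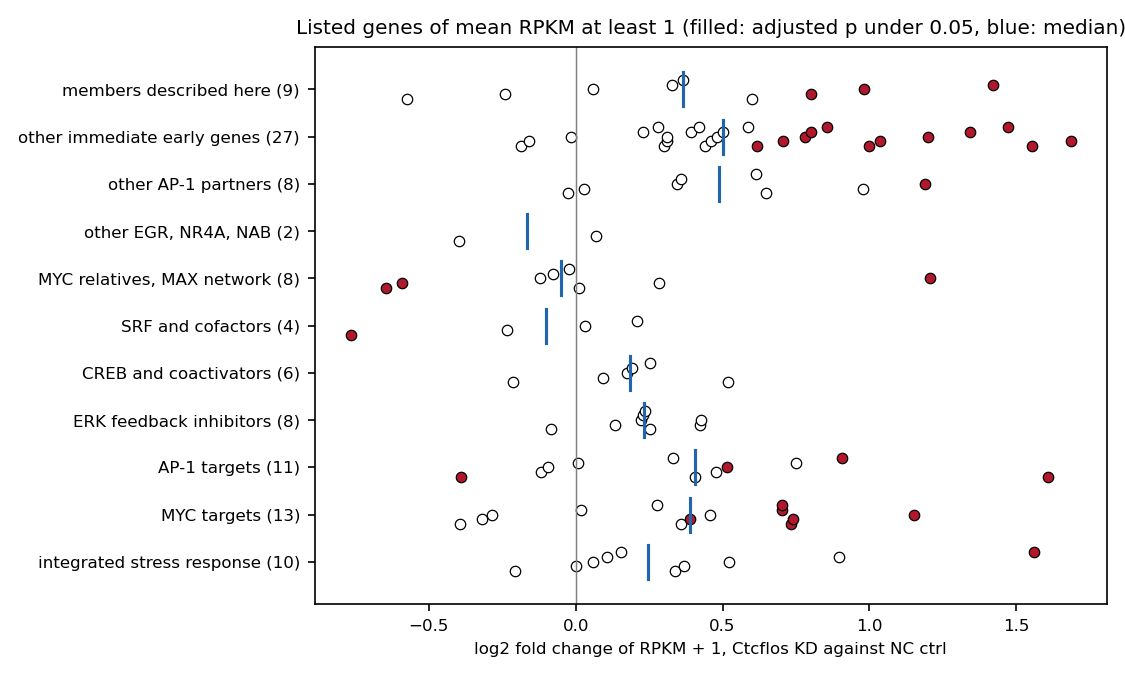
Log2 fold change of RPKM + 1, *Ctcflos* KD against NC ctrl, for the listed genes that passed the filter, their number in brackets, with calls at an adjusted p under 0.05 filled and list medians as blue bars. The 12 calls among 27 other immediate early genes all lie above 0, while the CREB and ERK feedback rows hold 0 calls in limma, with 1 and 2 genes at an unadjusted p under 0.05.

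Of genes known as targets of AP-1, 11 of 15 passed, 3 rose and 1 fell, so 36.4% were called, beside 24.0% of all genes. *Plaur*, the urokinase receptor, had 6.49, 6.26 and 3.70 RPKM in KD and 0.843, 1.40 and 1.05 RPKM in controls, and rose by 1.61 on the log2 scale (SE 0.189, adjusted p = 0.0037, limma). *Ccnd1*, the G1 cyclin D1, rose by 0.90 (adjusted p = 0.014) and *Cd44*, a hyaluronan receptor, by 0.51 (adjusted p = 0.047), whereas *Mmp14*, a membrane-bound matrix protease, fell by 0.39 (adjusted p = 0.038, all limma). The groups did not overlap in any of these 4 genes. Without KD replicate 3 the list had 7 calls, in a setting where 41.1% of all genes were called. Without KD replicate 1 or 2 the list had 2 each, and without NC ctrl replicate 1 or 3 it had 1 each. With a replicate block or without the filter 2 of these genes were called.

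Of genes known as targets of MYC, 13 of 17 passed, 6 rose and 0 fell (0 also at an unadjusted p under 0.05 in limma), so 46.2% were called, beside 11.5% of all genes called as higher. *Nop56*, *Ncl*, *Nop58* and *Npm1*, nucleolar proteins of ribosome assembly, rose by 1.15, 0.74, 0.73 and 0.70 on the log2 scale (adjusted p from 0.0080 to 0.012, limma). *Nop56* had 14.4, 16.1 and 11.8 RPKM in KD and 4.6, 7.76 and 5.24 RPKM in controls. In these 4 genes the groups did not overlap, and in *Nop58* and *Npm1* KD replicate 3 was within the range of the other KD libraries or just below it. *Odc1*, the entry enzyme of polyamine synthesis, and *Eif4e*, the cap-binding protein, were the other two called genes. Without NC ctrl replicate 1 or 3 the count was 1 each.

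Markers of the labelled cell type were abundant. The 7 adipocyte markers, which include *Adipoq*, *Fabp4* and *Plin1*, summed to 4227 to 5629 RPKM in the KD libraries and 5899 to 6557 RPKM in controls, and *Cebpa* fell by 0.89 on the log2 scale (adjusted p = 0.038, limma). The 6 brite markers summed to 61.8 to 81.1 RPKM in KD and 109 to 166 RPKM in controls. Of the 5 that passed the filter 3 fell, *Ucp1*, *Elovl3* and *Ppargc1a*. *Ucp1* in NC ctrl replicate 2, 27.1 RPKM, lay just above KD replicate 2, 26.1 RPKM. *Cidea* and *Cox7a1* had lower means in KD, but their groups overlapped and they were not called (adjusted p = 0.053 and 0.24, limma). *Prdm16* was under the filter. The adipocyte and brite sums were lower in all KD libraries, and in bulk RNA fewer cells of a type and less RNA per cell cannot be told apart. The 7 progenitor markers summed to 196 to 412 RPKM in KD and 293 to 469 RPKM in controls, most of it *Ly6a*, and *Pdgfra* fell from 21.8 ± 2.57 to 13.1 ± 0.922 RPKM (SD, n = 3), by 0.69 on the log2 scale (adjusted p = 0.010, limma). The 6 macrophage markers summed to 6.64 to 16.3 RPKM in KD and 8.13 to 27.7 RPKM in controls. Most of it was *Lyz2* in the controls and KD replicate 3, whereas *Cd68* was the largest part in KD replicates 1 and 2, at 4.12 and 3.44 RPKM. *Cd68* rose by 1.05 (adjusted p = 0.023, limma), *Lyz2* was at 1.24, 1.7 and 12.8 RPKM in KD and 7.41, 24.5 and 6.90 RPKM in controls with overlapping groups (adjusted p = 0.17, limma), *Csf1r*, under the filter, was at 1.30 and 0.514 RPKM on average, and *Ptprc* had a mean of 0.017 RPKM. The 5 mural markers summed to 18.9 to 49.5 RPKM in KD and 33.8 to 85.6 RPKM in controls, and the 5 endothelial ones to at most 1.38 RPKM. No marker was at 0 in all libraries, though *Dpp4* had a mean of 0.0097 RPKM. The part of these differences in the rise of *Jun*, *Atf3* and *Myc* was not tested.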

How the data were processed

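Stranded total RNA libraries, 3 of *Ctcflos* KD and 3 of NC ctrl cells, were grouped by their sample titles. The authors deposited 1 table of RPKM values per transcript accession (168326 lines, of which 305 exact repeats were removed). How it was made is not given in the sources used here. For the splice analysis of these libraries the methods name STAR and GRCm38. RPKM was averaged over the accessions of a symbol. limma-trend (limma 3.58.1, R 4.3.3) was run on log2(RPKM + 1) for the 11701 genes whose mean reached 1 RPKM, and p-values were adjusted by Benjamini-Hochberg over these genes. Genes under 1 were read from a fit without this filter. The same fit was run on 67403 accessions. Single genes were also compared with exact two-sided permutation tests. The fit was tested on simulated data. In each library 93.8 to 94.5% of low values lay within 0.05 of a whole read, which gave the depths. All fits used the 6 libraries unless a library is said to be left out.

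The text names all 10 genes, the targeted gene and, from each other list, the cell markers included, the 4 called genes with the largest change, as well as any gene of the AP-1 and EGR lists past the filter. *Max*, markers that were not called, genes that overlap the 10 and the genes under the filter were named after their values were seen or as markers. The 10 genes, the lists and the tests were chosen with earlier results of these data known. Alternatives were a pseudocount of 0.1, no filter, median-of-ratios scaling, a replicate block, RefSeq accessions alone, the highest accession, an adjusted p of 0.01 and leaving out each library. Replicate numbers are shared by the groups. Gene spans and overlaps come from Gencode and RefSeq, and promoters from RefSeq. Figures were drawn with matplotlib 3.10.9.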

Additional observations from a re-analysis of the deposited data

How the results depend on the processing

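*Jun*, *Atf3* and *Myc* were called with a pseudocount of 0.1, with values rescaled by the median of ratios, from RefSeq accessions alone and from the highest accession, and rescaling moved the median of all genes by 0.0044. Without a filter on low values 0 of the 10 genes, 17 listed genes, 9 accessions of the 10 genes and 1807 of 38335 genes were called. At an adjusted p under 0.01 these counts were 0, 10, 0 and 523 of 11701 genes. Same-numbered KD and control libraries deviated from their group means with correlations of 0.29, -0.29 and -0.42. KD replicates 2 and 3 correlated better with a control of another number, at 0.50 and 0.42. With 3 libraries a group these correlations cannot settle how the libraries pair, and the numbers were not taken as pairs. A replicate block left 1671 genes called, *Atf3* and *Jun* among them, while *Myc* had an adjusted p of 0.059, and *Ctcflos* (log2 fold change -0.66) had an adjusted p of 0.11. Leaving out each library in turn gave 0 to 4 of the 10 genes, 5 to 55 of the listed genes against 28 with all libraries, 0 to 27 accessions, 369 to 4810 genes and a *Ctcflos* log2 fold change of -0.72 to -0.63. Signs turned for *Junb* (range -0.18 to 0.38, with -0.12, -0.086 and -0.18 without KD replicate 1, KD replicate 2 and NC ctrl replicate 2), for *Egr1* (range -0.035 to 0.72, with -0.035 and -0.028 without KD replicate 1 and NC ctrl replicate 2) and for *Fos* (range -0.48 to 0.019, with 0.019 without NC ctrl replicate 3). These omissions leave a group with 2 libraries, and the cause of the other shifts was not tested. RPKM holds no counts, so counting error entered the tests only through the spread between libraries and was not modelled by itself. It weighs most on *Nr4a1* and *Ctcflos*.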

Other observations

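Upstream of these genes, SRF and CREB factors are held ready at promoters before a signal. Of SRF and its cofactors, 4 of 6 passed the filter, 0 rose and 1 fell, *Elk1*, a partner of SRF that ERK phosphorylates. This is 25% called, about the 24.0% of all genes. *Elk1* had 1.18, 1.12 and 1.81 RPKM in KD and 3.20, 2.78 and 3.02 RPKM in controls, and fell by 0.77 on the log2 scale (SE 0.126, adjusted p = 0.0085, limma). Without NC ctrl replicate 1 or 3 it was not called. Without KD replicate 3 the list had 2 calls, where 41.1% of all genes were called. Of CREB factors and their coactivators, 6 of 8 passed and 0 were called in limma, with 1 at an unadjusted p under 0.05. Of the DUSP, SPRY and SPRED inhibitors that ERK signalling induces against itself, 8 of 10 passed and 0 were called, beside 24.0% called among all genes. At an unadjusted p under 0.05 in limma there were 2, both higher in KD. Of these inhibitors 4 were called without KD replicate 3, where 41.1% of all genes were called. From RefSeq accessions alone 2 were called, and from the highest accession 1.

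ATF3 also belongs to the integrated stress response, in which phosphorylation of an initiation factor slows translation and favours ATF4. Of 10 genes of this response all 10 passed, 1 rose and 0 fell, with 3 at an unadjusted p under 0.05 in limma. This is 10% called as higher, near the 11.5% of all genes. The gene that rose, *Gdf15*, a secreted stress hormone, had 14.4, 13.0 and 5.66 RPKM in KD and 2.93, 2.78 and 2.76 RPKM in controls (log2 fold change 1.56, SE 0.282, adjusted p = 0.011, limma). Every KD library was above every control, with KD replicate 3 the nearest, as in *Atf3*. Without NC ctrl replicate 1 or 3 the count was 0. Without KD replicate 3 it was 4, where 41.1% of all genes were called. The count was 2 with rescaled values, RefSeq accessions alone or the highest accession.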
